A study of Cerrena unicolor with 12 samples.

Results

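The genes described here were 141 genes of the white-rot fungus *Cerrena unicolor* 87613 that differed between cultivation day 10 (Cd-10) and cultivation day 6 (Cd-6) in glucose medium and differed little between the same days in fructose medium. They were picked on the measured values. Each had an ID beginning with A, was absent from the gene lists in the study's supplementary tables on pathways and on glutathione metabolism, and had a mean of at least 50 over the 12 libraries. In glucose, the log2 difference between the Cd-10 and Cd-6 means was at least 1 in either direction and the 3 Cd-10 values did not overlap the 3 Cd-6 values. In fructose, the log2 difference between the Cd-10 and Cd-6 means stayed within 0.25 of 0. A value of 1 was added to each mean before the log2 was taken. The deposited table held 11281 genes, of which 9217 had such an ID, 9125 of these were not listed, 7736 reached the mean and 1078 met the limits in glucose. Of the 1078, the fructose difference ran the same way and was at least 1 in 463, ran the same way by 0.25 to 1 in 393, ran the other way by at least 0.25 in 81, and stayed within 0.25 in the 141 members. Of the members, 75 were higher and 66 were lower at Cd-10 in glucose. Because the rule used both age differences, these are given as a description and without a test.

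The 4 groups, of 3 replicate cultures each, were hyphae grown for 10 days with fructose (fructose Cd-10), for 6 days with fructose (fructose Cd-6), for 10 days with glucose (glucose Cd-10) and for 6 days with glucose (glucose Cd-6). All were the wild-type strain 87613 in potato dextrose medium whose carbon source had been replaced, shaken at 200 rpm and 30 °C. Only this strain was grown, and the study's methods describe the glucose cultures alone. The study asked what changes inside the mycelium between Cd-6, a day of high laccase activity, and Cd-10, a day of low activity.

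White-rot fungi are wood-decaying basidiomycetes that break down lignin with secreted oxidases, among them laccases. As a submerged culture ages, the supply of sugar runs down and hyphae pass from growth to maintenance, with broad changes in the transcriptome. Glucose and fructose are isomers that both feed glycolysis after phosphorylation, and glucose is in many fungi also a signal that represses genes for the use of other carbon sources. The IDs of the members are those of a strain-specific gene set, and no file at hand pairs them with a product. The gene table of another *C. unicolor* strain matched 0 of them, so members are called by ID, no function is given to them and no sequence is shown.

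The libraries held 10279983 to 12126094 assigned reads, with a median of 10930112. Values given below are normalised read counts, that is reads divided by 1 median-ratio factor per library taken over all 12 libraries, without correction for gene length. On this scale 134 of the 141 members met the same limits. Among all genes tested, the second principal component held 18.1% of the variance. At Cd-6 it set the sugars apart, with the fructose cultures at -32.85, -23.79 and -23.69. Replicate 2 of glucose Cd-6 lay farthest out, at 62.6, against 13.2 and 32 for replicates 1 and 3 of its group. The labels name no batch. That culture bears on the members directly, and results are therefore given with and without it.

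In glucose, the members that were higher at Cd-10 differed by 1.00 to 2.92 on the log2 scale, with a median of 1.27, and those that were lower differed by -3.04 to -1.01, with a median of -1.22. Most differences lay near the limit. Absolute differences stayed under 1.5 in 110 members and under 1.1 in 33, lay between 1.5 and 2 in 20, and reached 2 in 11, of which 5 were higher and 6 lower at Cd-10. The members' median absolute difference was 1.24, against 1.67 for the 463 genes that differed by at least 1 in the same direction in both sugars. A difference of at least 2 was seen in 7.80% of the members and in 33.9% of those 463 genes, 157 in number.

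**Figure D1:**
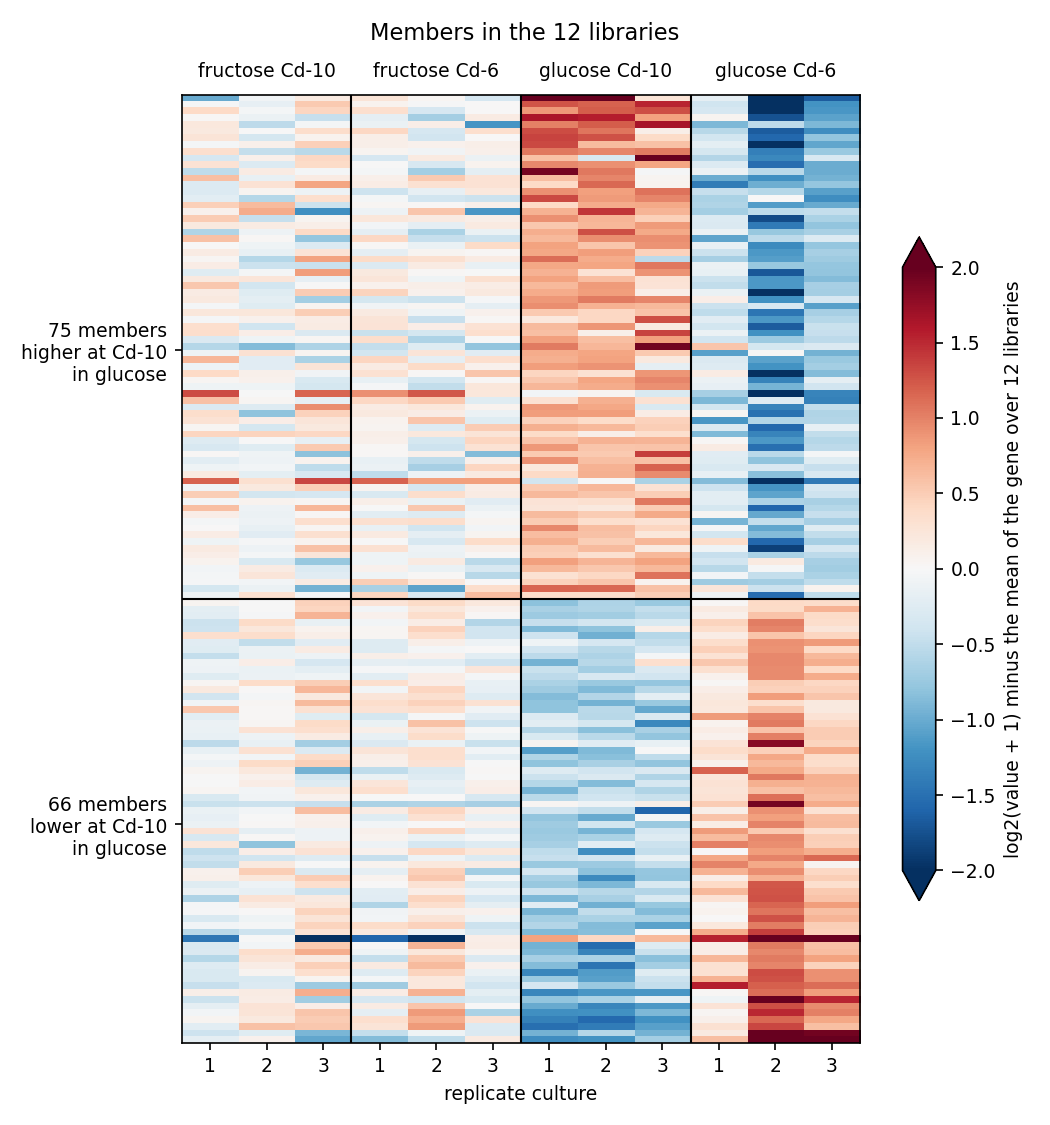
Each row is 1 of the 141 members and each column 1 culture, grouped as fructose Cd-10, fructose Cd-6, glucose Cd-10 and glucose Cd-6; color gives log2(value + 1) minus the mean of that gene over the 12 libraries, cut at -2 and 2. Rows run from the largest to the smallest glucose difference, with the 75 members higher at Cd-10 in glucose above the line and the 66 lower members below it. The 6 fructose columns are pale in most rows, and replicate 2 of glucose Cd-6 is the deepest column, with a median of -1.15 in the upper block and 0.98 in the lower one.

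Of the members that were higher at Cd-10 in glucose, A00549 had the largest difference. Its values were 1669, 1516 and 390.9 in replicates 1 to 3 of glucose Cd-10, against 289.6, 78.66 and 102.5 in glucose Cd-6. Its mean was 7.56-fold higher at Cd-10, yet the lowest Cd-10 culture stood only a little above the highest Cd-6 culture. Its fructose values were 161.6, 313.2 and 372.4 at Cd-10, against 390.0, 338.1 and 260.1 at Cd-6. None of them reached the lowest glucose Cd-10 culture, and 4 of the 6 lay above the highest glucose Cd-6 culture. A06185 had 4687, 4423 and 5597 in glucose Cd-10, against 1487, 290.3 and 854.1 in glucose Cd-6, a 5.58-fold higher mean. Here the 3 Cd-10 cultures were close to each other, and the Cd-6 cultures were spread, with replicate 2 the lowest. In fructose A06185 had 1913, 1736 and 2811 at Cd-10, against 2050, 1920 and 1958 at Cd-6, so that all 6 fructose values lay between the glucose groups.

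Of the members that were lower at Cd-10 in glucose, A03605 had 138.9, 143.2 and 204.8 in glucose Cd-10, against 502.3, 1721 and 1810 in glucose Cd-6, an 8.24-fold lower mean. Its fructose values were 292.1, 349.5 and 160.4 at Cd-10, against 180.2, 231.3 and 373.4 at Cd-6, all below the lowest of the glucose Cd-6 cultures. A07893 had 671.5, 874.2 and 672.0 in glucose Cd-10, against 1461, 8904 and 4920 in glucose Cd-6, a 6.88-fold lower mean. Its glucose Cd-6 values ran over a wide range with replicate 2 at the top. Of its 6 fructose values, from 684.5 to 1222, 5 lay between the glucose groups and 684.5 fell within the glucose Cd-10 group.

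The members with the highest read counts are those measured with the least counting error. A05133 had 19900, 18150 and 27230 in glucose Cd-10, against 16510, 3101 and 8063 in glucose Cd-6, and 14020 to 21590 in the 6 fructose cultures. Replicate 1 of glucose Cd-6 thus stood close to glucose Cd-10, and without replicate 2 the difference of 1.24 became 0.82. A08516 had 19310, 17200 and 16530 in glucose Cd-10, against 7140, 9766 and 8603 in glucose Cd-6, where the 3 cultures of each age were within a narrow range. Its fructose values ran from 12710 to 17240. Its glucose difference was 1.06, and 0.83 with the libraries scaled to equal totals.

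Among the members lower at Cd-10, A07808 had the highest count, with 15280, 13390 and 20160 in glucose Cd-10, against 46300, 36620 and 31920 in glucose Cd-6. Its fructose values were 31160, 22610 and 23930 at Cd-10, against 27410, 34520 and 21800 at Cd-6, all above every glucose Cd-10 culture. A02758 had 2228, 2478 and 3410 in glucose Cd-10, against 3621, 17560 and 11140 in glucose Cd-6. Its difference of -1.99 rested on replicates 2 and 3 of Cd-6, since replicate 1 lay just above the highest Cd-10 culture.

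**Figure D2:**
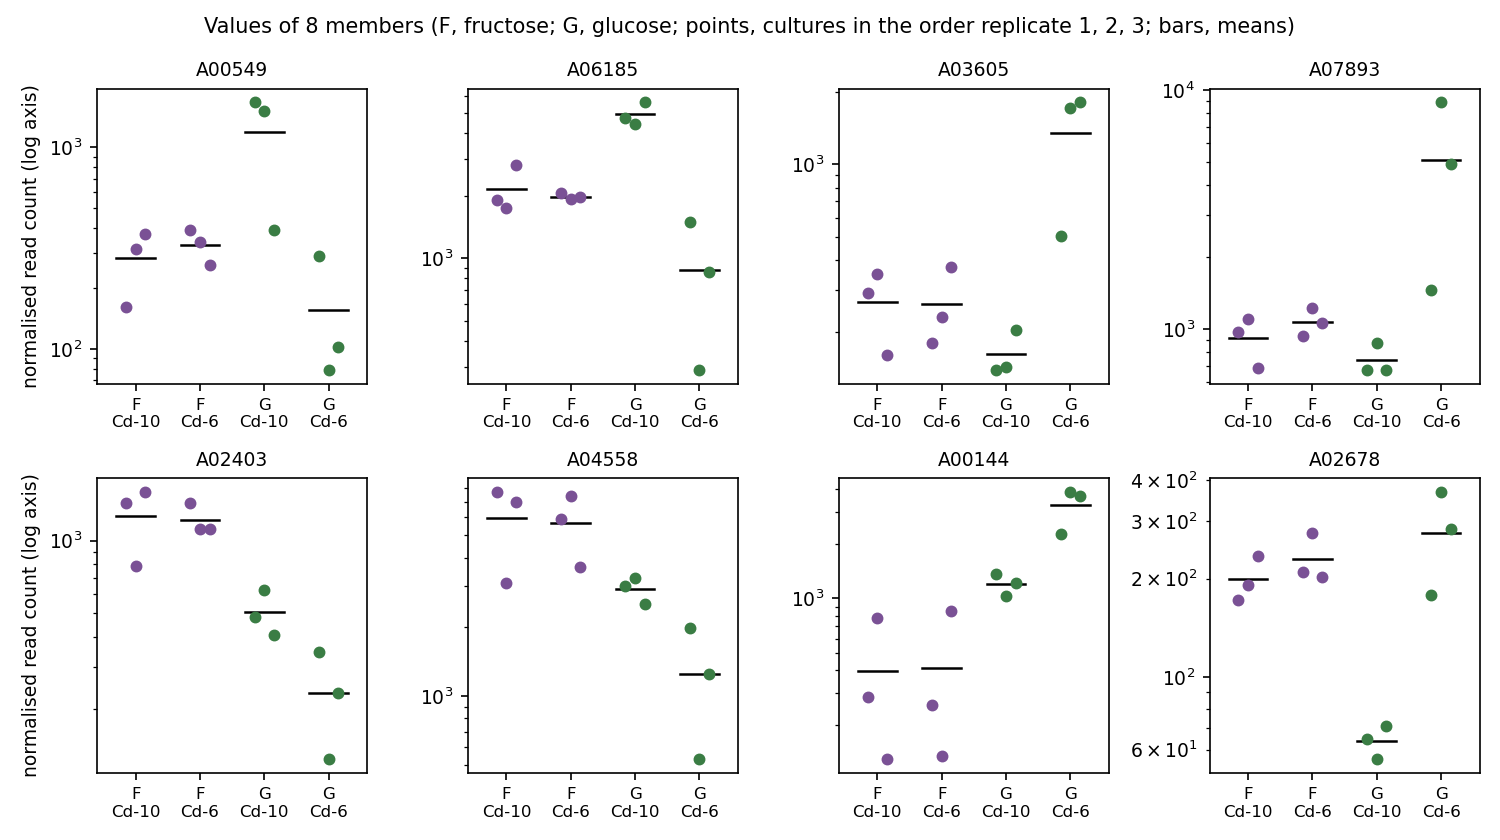
Normalised read counts (log axis) of 8 members in fructose (F) and glucose (G) cultures at Cd-10 and Cd-6; each point is 1 culture and each bar the mean of 3. In A00549, A06185, A03605 and A07893 the glucose ages are farthest apart, in A02403, A04558 and A00144 nearly all fructose cultures lie beyond the glucose Cd-10 group, and in A02678 glucose Cd-10, at 55.99 to 71.07, is the group that stands apart.

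Summed over the members, the 75 genes that were higher at Cd-10 took 1.61 to 1.72% of each glucose Cd-10 library, against 0.602 to 0.954% of each glucose Cd-6 library. In fructose they took 1.03 to 1.29% at Cd-10, against 1.07 to 1.15% at Cd-6, which was between the glucose ages. The 66 lower genes took 0.245 to 0.324% of each glucose Cd-10 library, against 0.663 to 1.13% of each glucose Cd-6 library. In fructose they took 0.376 to 0.455% at Cd-10, against 0.335 to 0.488% at Cd-6, again between both glucose ages. A single gene, A07808, made up much of these sums, with 0.121 to 0.177% of each glucose Cd-10 library, against 0.313 to 0.425% of each glucose Cd-6 library. The other 65 genes took 0.122 to 0.148% at glucose Cd-10, against 0.24 to 0.704% at glucose Cd-6, and 0.155 to 0.192% in fructose. In the sums over all 75 and all 66 genes the extreme glucose Cd-6 library was replicate 2, with 0.602% and 1.13%.

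The fructose differences of the members, bound by the rule to a narrow band, ran from -0.24 to 0.26 on the 12-library scale with a median of 0.01. They ran the same way as the glucose difference in 80 of the 141 members. Since the rule holds the fructose estimates near 0, their intervals describe the spread between cultures only. They are no evidence that the members stay level in fructose. The 95% interval of the limma estimate lay within -1 and 1 in 129 members and within -0.5 and 0.5 in 15, and the median interval reached 0.59 to either side. For the other 12 members, a fructose difference as large as the limit applied to glucose was within the interval.

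The rule set no limit on where the fructose level lay relative to the glucose levels. Picking genes whose glucose ages lie apart nonetheless draws the fructose level toward the middle, so the places are a description and not an independent result. The fructose level was placed on a scale on which 0 is the glucose Cd-6 level and 1 the glucose Cd-10 level. The mean of both ages on the log2 scale was taken for fructose. The median place was 0.50, both in the members higher and in those lower at Cd-10 in glucose. The fructose level lay between the glucose ages, at 0.25 to 0.75, in 90 members. It lay near glucose Cd-10, within 0.25 of 1, in 22 members and near glucose Cd-6, within 0.25 of 0, in 23. It lay farther than 0.25 beyond glucose Cd-10 in 4 members and farther than 0.25 beyond glucose Cd-6 in 2. Culture by culture, all 6 fructose values fell in the gap between the glucose groups in 17 members, at least 5 did in 34, and none did in 12. Without replicate 2 of glucose Cd-6 the median place was 0.41 and 40 members lay near glucose Cd-6, and without replicate 1 of glucose Cd-6 these were 0.57 and 13.

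**Figure D3:**
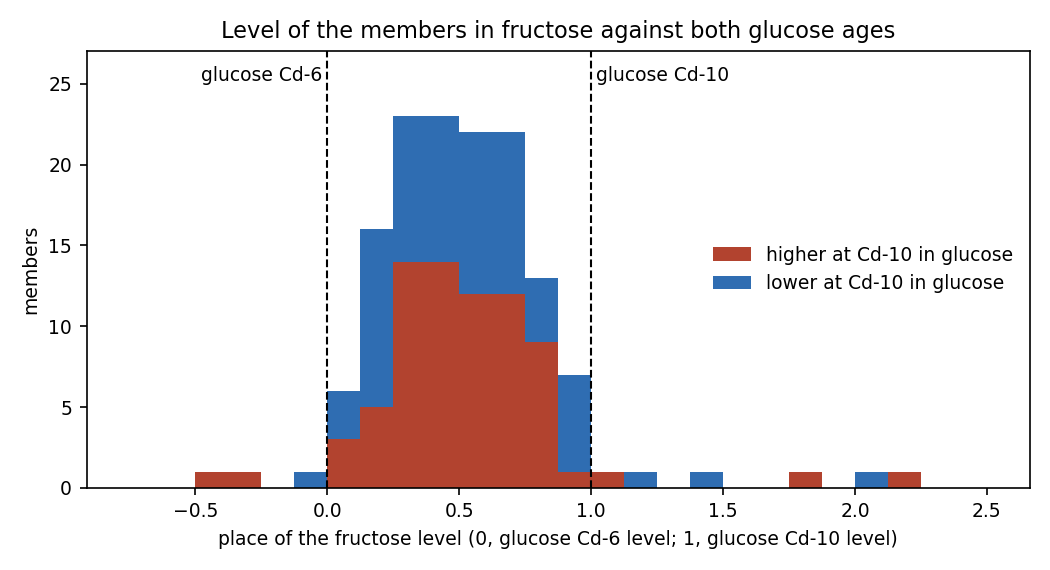
Number of members (vertical axis) by the place of their fructose level on a scale from the glucose Cd-6 level (0) to the glucose Cd-10 level (1), with members higher and lower at Cd-10 in glucose stacked. The bulk, 90 of 141, lies between 0.25 and 0.75, and 6 members lie more than 0.25 outside the dashed lines.

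Each place is shown by the member of each direction with the highest count in it. Near glucose Cd-10 these were A08516, at 0.80, and A02758, at 0.90. In the middle were A05133, at 0.73, and A07808, at 0.41. Near glucose Cd-6 was A03150, at 0.12, which had 2951, 2235 and 1609 in fructose Cd-10 and 2003, 1906 and 2530 in fructose Cd-6. In glucose it had 4673, 5290 and 5067 at Cd-10, against 2801, 1111 and 2035 at Cd-6, so that only old glucose cultures were high. A05525, at 0.18, was its counterpart, with 393.8, 404.8 and 451.5 in glucose Cd-10, the lowest group, against 704.1, 970.7 and 853.3 in glucose Cd-6 and 566.6 to 1046 in fructose.

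Beyond the glucose range lay 6 members. A02403 was at 2.17, with 1425, 783.0 and 1594 in fructose Cd-10 and 1434, 1111 and 1111 in fructose Cd-6. It had 484.2, 626.6 and 405.5 in glucose Cd-10, against 346.5, 124.1 and 233.5 in glucose Cd-6. Every fructose culture was thus higher than every glucose culture. A04558 was at 1.81, with 7749, 3101 and 7007 in fructose Cd-10 and 5888, 7432 and 3661 in fructose Cd-6. It had 3011, 3249 and 2524 in glucose Cd-10, against 1972, 530.4 and 1252 in glucose Cd-6, and 5 of its 6 fructose cultures were above all glucose cultures.

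A00144, at 2.09, was the mirror image, lowest in fructose. It had 284.8, 773.7 and 129.3 in fructose Cd-10 and 257.8, 135.7 and 850.1 in fructose Cd-6, a wide spread at both ages. In glucose it had 1353, 1031 and 1221 at Cd-10, against 2257, 3874 and 3670 at Cd-6. A08829, also lower at Cd-10 in glucose, was at 1.48, with 698.1, 702.1 and 686.4 in fructose Cd-10 and 613.9, 628.4 and 602.2 in fructose Cd-6, all below its 977.8, 886.1 and 1035 in glucose Cd-10 and its 1355, 3572 and 1589 in glucose Cd-6. On the far side of glucose Cd-6 lay A01454, at -0.48, and A09977, at -0.365, both higher at Cd-10 in glucose. A01454 had 206.1, 167.0 and 198.3 in fructose Cd-10 and 219.6, 258.0 and 177.1 in fructose Cd-6, against 630.6, 482.3 and 1160 in glucose Cd-10 and 450.4, 239.2 and 249.4 in glucose Cd-6. Its fructose cultures were all below glucose Cd-10 and overlapped glucose Cd-6. A09977 had 1047, 1226 and 695.2 in fructose Cd-10 and 848.8, 637.3 and 1698 in fructose Cd-6, against 2991, 2948 and 2001 in glucose Cd-10 and 1571, 985.3 and 1407 in glucose Cd-6, and here too every fructose culture was below glucose Cd-10.

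The difference between the sugars on a given day was fitted with limma over all 10396 genes that passed the filter on low values, with Benjamini-Hochberg adjustment. All 141 members passed that filter. The rule set no limit on this difference, but the glucose values in it are those on which the members were picked. A member picked for low glucose Cd-6 and high glucose Cd-10 values with fructose held level is thereby drawn toward fructose above glucose at Cd-6 and below it at Cd-10, and the reverse holds for a member picked the other way. On the scale of the rule the differences of the 2 days must lie at least 0.75 apart. The signs, counts and p-values of members are therefore a description and not an independent test, and the shares over all genes beside them are no measure of what to look for in genes picked in this way.

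At Cd-6, 20 of the 75 members that were higher at Cd-10 in glucose were higher in fructose than in glucose and 0 were lower. Of all genes tested, 5.29% were higher and 5.02% lower in fructose at Cd-6. Of the 66 members lower at Cd-10 in glucose, 18 were lower in fructose at Cd-6 and 0 were higher. At an unadjusted p below 0.05 these counts were 44 and 0 of the 75 and 35 and 0 of the 66. No count over all genes was made at that threshold, so these have no baseline. The estimate was positive in 73 of the 75 members, with a median of 0.71, and negative in 64 of the 66, with a median of -0.59, where the median over all genes was 0.00. Without replicate 2 of glucose Cd-6, 11 of the 75 members were called higher, with a median of 0.51. Of the 66, 5 were then called lower, with a median of -0.37. Over all genes 246 were then called higher and 270 lower. With libraries scaled to equal totals the split of calls was 9 higher and 28 lower, where the median of all genes was itself at -0.27. With the separate scaling of each sugar kept it was 13 and 25. Over all genes these splits were 317 and 1277, and 390 and 861.

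The 3 largest of these differences were those of A00144, A02403 and A04558, whose fructose level lay beyond the glucose range. A02403 was higher in fructose by 2.48 at Cd-6 (SE 0.341, limma adjusted p = 0.0011), and A04558 by 2.31 (SE 0.443, limma adjusted p = 0.0074). A00144 fell by 3.35 in fructose relative to glucose (SE 0.627, limma adjusted p = 0.0065). These 3 passed the test in all 25 fits, the alternatives included, with adjusted p-values of at most 0.012, 0.04 and 0.037. A03605 fell by 2.21 (SE 0.451, limma adjusted p = 0.0099), and its adjusted p was 0.059 without replicate 1 of fructose Cd-6. Other members named above that passed at Cd-6 were A06185 (1.46, limma adjusted p = 0.046), A08516 (0.93, limma adjusted p = 0.013), A07893 (-1.91, limma adjusted p = 0.023), A02758 (-1.55, limma adjusted p = 0.04) and A08829 (-1.68, limma adjusted p = 0.0026). For A00549, the member with the largest glucose difference among those higher at Cd-10, the estimate was 1.28 with a 95% interval of 0.08 to 2.48 (limma adjusted p = 0.16).

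At Cd-10 most members had the opposite sign, toward which the rule draws them. Of the 75 members higher at Cd-10 in glucose, 11 were lower in fructose and 0 were higher, where 1.8% of all genes tested were lower and 1.54% higher. Of the 66 members lower at Cd-10 in glucose, 13 were higher in fructose and 0 were lower. At an unadjusted p below 0.05, again with no count over all genes, 39 of the 75 were lower and 1 higher. Of the 66, 39 were higher and 1 lower. Estimates were negative in 71 of the 75, with a median of -0.64, and positive in 61 of the 66, with a median of 0.64. Without replicate 2 of glucose Cd-6, 24 of the 75 were called lower and 1 higher. Of the 66, 17 were then called higher and 1 lower. Over all genes 324 were then called lower and 230 higher. With the separate scaling of each sugar kept, 21 members were lower in fructose and 13 higher, against 455 and 109 over all genes.

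A05395 was higher in fructose by 1.64 at Cd-10 (SE 0.348, limma adjusted p = 0.032). It had 50.75, 88.15 and 85.56 in fructose Cd-10, against 19.97, 21.53 and 27.17 in glucose Cd-10, so the groups did not overlap. A02678 was higher in fructose by 1.62 (SE 0.251, limma adjusted p = 0.011), with 171.9, 190.8 and 235.3 in fructose Cd-10, against 64.68, 55.99 and 71.07 in glucose Cd-10. Its values at Cd-6 were 209.7, 275.8 and 202.4 in fructose, against 177.8, 369.0 and 283.0 in glucose, and there the sugars overlapped. A01454 fell by 1.89 in fructose at Cd-10 (SE 0.309, limma adjusted p = 0.013) and A09977 by 1.43 (SE 0.33, limma adjusted p = 0.04). A03150, the example near glucose Cd-6, fell by 1.19 (SE 0.294, limma adjusted p = 0.047). The calls at Cd-10 were less stable than those of the 3 genes above: of 25 fits, A05395 passed in 19, A02678 in 21, A01454 in 22 and A09977 in 16.

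**Figure D4:**
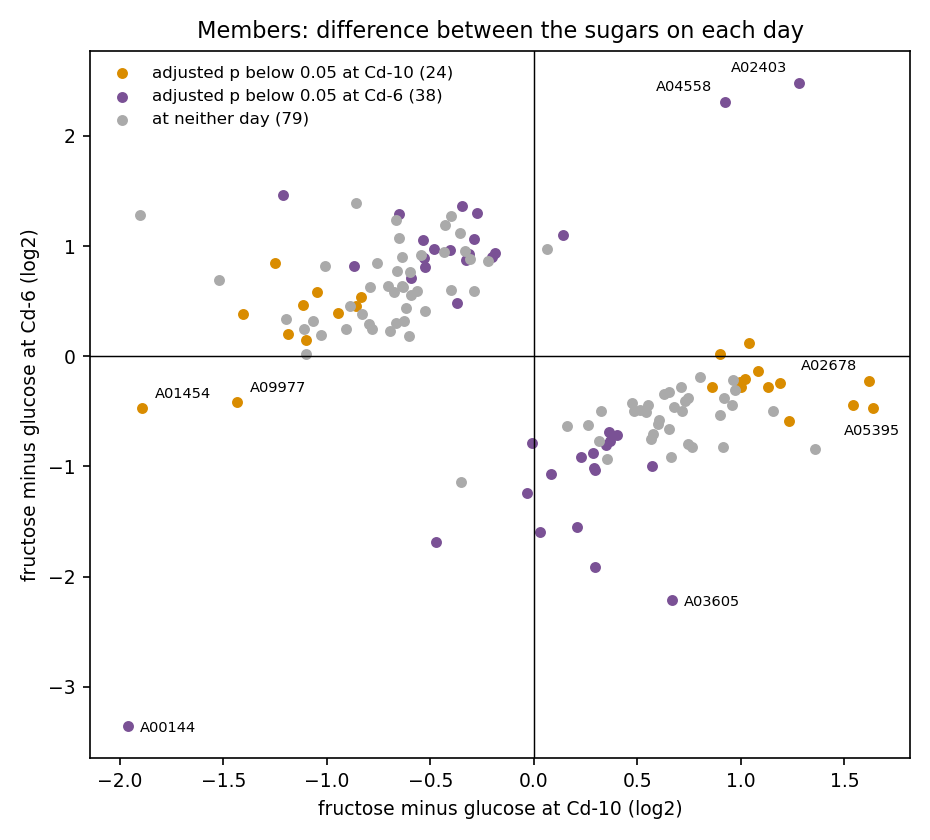
Fructose minus glucose (log2, limma) of each of the 141 members at Cd-10 (horizontal axis) and at Cd-6 (vertical axis), with members past an adjusted p of 0.05 in color. Members higher at Cd-10 in glucose lie mostly at the upper left and those lower mostly at the lower right, apart from each other as the rule requires; 38 passed at Cd-6, 24 at Cd-10 and 0 on both days.

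Taking both days, 38 members passed at Cd-6 alone, 24 at Cd-10 alone, 0 at both and 79 at neither. An unadjusted p below 0.05 on both days was seen in 29. Neither the overlap of the days nor the calls at an unadjusted p were counted over all genes. The 0 at both is therefore not read as a trait of the members. Whether the difference on 1 day exceeds that on the other was not tested since the rule fixes it in part. Without replicate 2 of glucose Cd-6, 16 members passed at Cd-6 and 43 at Cd-10, against 516 and 554 over all genes. The count of members at Cd-10 was 0 without replicate 1 of glucose Cd-10, 1 without its replicate 2, 6 without replicate 2 of fructose Cd-10, 1 without its replicate 3 and 12 without replicate 1 of fructose Cd-6. Over all genes these fits called 15, 36, 101, 42 and 129, against 347 in the main fit. Where the members' count was 0, 69 members had an unadjusted p below 0.05. At Cd-6 the count of members was 66 without replicate 1 of glucose Cd-6, 22 without its replicate 3, and 8, 20 and 16 without replicates 1, 2 and 3 of fructose Cd-6. Over all genes these fits called 1741, 722, 293, 572 and 665, against 1072 in the main fit. The swings of the members thus went with swings over all genes.

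The share of the members in which replicate 2 of glucose Cd-6 was the Cd-6 culture farthest from glucose Cd-10 was 79.4%, or 112 of 141. By direction it was 56 of the 75 higher and 56 of the 66 lower members. That share was 49.1% in the 7736 genes from which the members came, 51.9% in the 1078 that met the limits in glucose and 29.6% in the 463 that differed in both sugars. When the group means were taken without this culture, 90 members, or 63.8%, still differed by at least 1 in glucose, against 95.5% of the 463. The other 51 members fell below the limit. With all cultures the 463 lay farther from the limit, at a median absolute difference of 1.67 against 1.24 in the members. The shares that stayed are therefore no measure of a special dependence on this culture. Without it, the median difference was 1.11 in the members higher and -1.09 in those lower at Cd-10, and the smallest absolute difference was 0.46. The direction could not turn, since the rule asks that no Cd-10 value overlap a Cd-6 value. In all, 102 genes met the whole rule without this culture, against 234 without replicate 1 and 166 without replicate 3 of glucose Cd-6. Of the 141 members, 90 met the whole rule without this culture. That number was 122 to 136 without 1 of the other glucose libraries and 106 to 117 without 1 fructose library. What set replicate 2 apart was not tested.

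**Figure D5:**
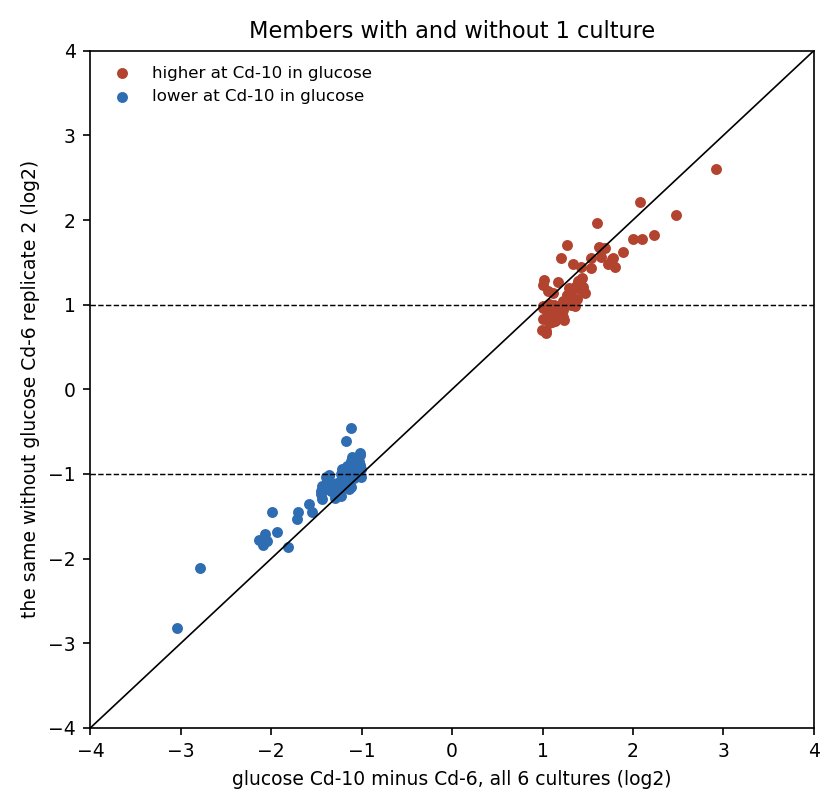
Glucose Cd-10 minus Cd-6 (log2) of each member with all 6 glucose cultures (horizontal axis) and without replicate 2 of glucose Cd-6 (vertical axis); the solid line marks equal values and the dashed lines the limit of 1. Most points lie on the side of the line toward 0, and 90 of the 141 members stay at or beyond the limit.

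Membership was a matter of small margins at each limit. Just inside the limit on glucose were A00757 and A02878, both at -1.001, and just outside it A05595, at -0.993, and A04419, at 0.999. At the fructose limit, A00310 (0.246) and A10224 (0.248) were in, while A09553 (0.257) and A00054 (-0.258) were out. At the mean of 50, A01959 (52.1) and A05126 (54.0) were in, while A01811 (41.3) and A06518 (47.5) were out. A further 13 genes met each limit on means and differences and were left out because their glucose groups overlapped.

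The same rule turned round, with the limits for glucose and fructose exchanged, gave 137 genes that differed in fructose only. Of these, 50 were higher and 87 lower at Cd-10 in fructose, with a median absolute difference of 1.39. Their glucose level lay at a median place of 0.80 on the scale from fructose Cd-6 to fructose Cd-10, with 65 genes near fructose Cd-10, 48 between the ages and 15 near fructose Cd-6. The members' own median was 0.50, with 22 near glucose Cd-10, 90 between and 23 near glucose Cd-6. The sets share no gene by construction and were not tested against each other.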

How the data were processed

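RNA was extracted from 3 replicate cultures of each group and libraries were made with the NEBNext Ultra kit. The study's methods name Hisat2 2.0.5 for alignment and featureCounts 1.5.0-p3 for the counting, and the submitters' processing notes also name Cufflinks. The reference was the genome of the strain itself. A build name, an annotation version and the use of strand are not given in the sources used here. How reads of overlapping genes were assigned is therefore not known. What the authors deposited was a signal for every gene, obtained by dividing its reads by a median-ratio factor of the library, worked out apart for the 6 fructose and the 6 glucose libraries. In each of the 12 libraries 100% of values came to whole reads (tolerance 0.01). An automatic test of this accepted 9 of them, and the value of 1 read was near 1 in the other 3.

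The member rule was applied to the deposited values. For the levels and tests, reads were divided by median-ratio factors computed across all 12 libraries. Fructose minus glucose on each day was fitted with limma 3.58.1 (R 4.3.3; lmFit and eBayes with trend) on log2(value + 1), with 4 group means, keeping genes that reached 10 in 3 or more libraries, with Benjamini-Hochberg adjustment over all genes tested, and genes were called at an adjusted p below 0.05. The fit was tested on simulated data. Alternatives were other scalings, pseudocounts and filters, each library left out, a replicate block, and edgeR 4.0.16 (quasi-likelihood) and DESeq2 1.42.0 on the reads of the 9 libraries. The same count tests on all 12 libraries were added after seeing the data, and there edgeR called 1065 genes at Cd-6 and 361 at Cd-10. Fold changes on the log2(value + 1) scale understate the change of low genes.

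Members, lists and named genes were chosen with earlier results of these data known. Named were the 2 members of each direction with the largest glucose difference, the 2 with the highest mean, up to 2 of each sign with the largest called difference between the sugars on each day, the member of each direction with the highest mean in each class of place, and the genes next to each limit. A08829 was named after its value was seen, and so were all genes of the closing section.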

Additional observations from a re-analysis of the deposited data

How the results depend on the processing

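The number of genes that met the rule, 141, was 231 with libraries scaled to equal totals (90 of the members among them), 89 at a mean of at least 200, 310 with a fructose limit of 0.5 and 57 with one of 0.1, and 102 to 234 with 1 library left out. Of the other settings, TMM factors gave 138 genes, 129 of them members, and means of log2 values gave 144, 124 of them members. Members called between the sugars at Cd-6, 38, were 19 with only the 6 libraries of that day, 23 with edgeR on 9 libraries, and 8 to 66 with 1 library left out. At Cd-10, 24 became 0 with edgeR on 9 libraries, a test that called 10 genes in all (47 members at an unadjusted p below 0.05) and in which fructose Cd-10 had 1 library, assumed to vary like the other groups. It became 28 with edgeR and 48 with DESeq2 on 12 libraries, 29 with DESeq2 on 9 libraries, and 0 to 43 with 1 library left out. Over all genes, DESeq2 on 12 libraries called 1650 at Cd-6 and 909 at Cd-10, against 1072 and 347 with limma. With 1 library left out, 13 to 40 members lay near glucose Cd-6, 18 to 28 near glucose Cd-10 and 76 to 97 between. With the replicate block, 45 members were called at Cd-6 and 16 at Cd-10, with 973 and 171 genes in all. Residuals of same-numbered cultures correlated at 0.107, 0.181 and 0.08 at Cd-6 and -0.049, -0.085 and -0.205 at Cd-10. At Cd-6 each fructose culture correlated best with the glucose culture of its own number, and at Cd-10 none did. Whether replicate numbers pair the cultures was therefore not settled, and the main fit left them unpaired. The block gave 25 higher and 20 lower calls at Cd-6, and 12 higher and 4 lower at Cd-10. The 16 differences of named genes that were followed across settings kept their sign. Other signs moved: of the 75 members higher at Cd-10 in glucose, 73 were positive at Cd-6 and 64 with libraries scaled to equal totals, while at Cd-10 4 were positive and 10 with edgeR on 9 libraries. At Cd-10, A02403 alone of the 75 was called higher in fructose with equal totals, without replicate 1 or 2 of glucose Cd-6, with DESeq2 on 9 libraries and with either count test on 12. With 3 cultures a group, differences between the sugars of the size of the members' median, near 0.6 to 0.7, were called in a minority of members. The causes of these shifts were not tested, and leaving a library out also lowers the number of libraries.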

Other observations

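The limits on values were also met by genes that the rule on IDs had left out. Of the 2064 genes whose ID does not begin with A, 23 met them, 21 higher and 2 lower at Cd-10 in glucose. Of the 92 genes in the study's pathway lists, 8 met them, and all 8 stand in its list named for the yeast cell cycle, the machinery of DNA replication and division, which holds 13 genes. Of the 79 listed genes outside that list, 0 met them. The lists were chosen by the study on the glucose libraries, so that 88 of the 92 genes met the glucose limits by that choice and the direction in glucose is not independent evidence. The study's methods describe no fructose library in that choice. Among the genes from which the members came, 463 of the 1078 that met the glucose limits differed the same way by at least 1 in fructose. Another 141, the members, stayed within 0.25. Of the 13 cell cycle genes 12 met the glucose limits and 0 differed the same way by at least 1 in fructose. Of the 9 genes of the meiosis list 8 met the glucose limits and 1 did so in fructose. In the other lists the number that differed the same way in fructose was 25 of the 29 that met the glucose limits for carbon metabolism, 6 of 12 for starch and sucrose metabolism, 6 of 10 for glyoxylate and dicarboxylate metabolism, 8 of 10 for glutathione metabolism, 8 of 9 for the citrate cycle, 12 of 13 for pyruvate metabolism, 9 of 12 for amino acids and 33 of 49 for secondary metabolites.

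Of the 8 cell cycle genes, 7 were lower and 1 was higher at Cd-10 in glucose. A01254 had 377.0, 408.6 and 554.2 in fructose Cd-10 and 428.2, 482.7 and 328.9 in fructose Cd-6, and 189.3, 166.9 and 249.8 in glucose Cd-10, against 544.3, 841.0 and 637.4 in glucose Cd-6. The higher one, A01728, had 1770, 1242 and 1545 in fructose Cd-10 and 1738, 1669 and 1488 in fructose Cd-6, and 1991, 2258 and 1956 in glucose Cd-10, against 1143, 867.7 and 975.1 in glucose Cd-6. In both, fructose cultures of either age lay mostly between the glucose ages, and the place of the 8 genes ran from 0.29 to 0.63. Without replicate 2 of glucose Cd-6, 6 of the 8 still differed by at least 1 in glucose. Of the 13 cell cycle genes, 8 are also in the study's meiosis list, and 5 of these are among the 8.

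An ID consecutive to that of another gene of the same set was held by 6 of the 141 members (4.26%), by 67 of the 463 genes that differed in both sugars (14.5%) and by 294 of the 1078 that met the glucose limits (27.3%), shares that also depend on the size of each set.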
